A study of Mus musculus with 6 samples.

Results

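Cav2 encodes caveolin-2, and its row (ENSMUSG00000000058) was taken by gene name from the deposited table, as 1 of the table's 99 genes. It was chosen by the role of caveolae in particle uptake and membrane signalling and by the fall of its FPKM and counts after treatment, so its difference between the groups is described here and carries no test. RNA came from B16F10, a mouse melanoma line with wild-type genotype in the labels, grown in medium with serum. One group of 3 libraries was left untreated, and the other group of 3 libraries was kept with MTyr-OANPs for 48 h, a code that is not expanded here. Poly(A) RNA was sequenced, and the table gives a count and an FPKM value (fragments per kilobase of gene, scaled to library depth) for each gene and library. The libraries are named biological replicates in the series' design text, which does not tell whether the cultures were separate, so the p-values given here measure differences against a spread that may be technical. All controls were untreated cells, so an effect of handling cannot be told apart from one of MTyr-OANPs.

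Caveolins are hairpin-shaped membrane proteins that, with the cavin coat proteins, shape caveolae, small cholesterol-rich pits of the plasma membrane. Caveolin-2 assembles into oligomers with caveolin-1, and it needs caveolin-1 to leave the Golgi and reach the cell surface. Caveolae buffer membrane tension, gather signalling receptors and G proteins, touch integrin adhesions, and are one of several routes by which particles can enter cells. Cav1 and Cav3, the other caveolin genes, were not analysed here, nor were the cavin, EHD and pacsin genes of the caveolar coat.

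The Cav2 gene lies on the plus strand of chromosome 6 at 17281185 to 17289115 (GRCm38), and both ends in the table match the GENCODE M21 annotation. The annotation gives 3 protein-coding transcripts, of 2733, 974 and 694 bases. The longest has 3 exons, at 17281185 to 17281510, 17281895 to 17282082 and 17286897 to 17289115. The counts divided by FPKM gave the length that the authors had used for the gene, 3336 bases in every library, against 3335 bases for the union of the exons of all 3 transcripts. The FPKM of Cav2 is therefore a value of the whole gene, and the transcripts cannot be told apart in it. An antisense gene, Gm15581, spans the locus on the minus strand, but none of its exons overlaps an exon of Cav2. No stretch of 50 bases of a Cav2 transcript was found in a transcript of another gene, Cav1 included. Cav1 begins 17.2 kb beyond the end of Cav2, on the same strand.

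The 250 bases before the annotated Cav2 start site, chr6:17280935-17281184 on the plus strand (RefSeq, GRCm38.p6), are printed as the promoter of the longest annotated transcript; the other 2 transcripts start further on, at 17281327 and 17281359, and the counts do not tell which start was used. Capitals mark the match to TGANTCA, the AP-1 motif, searched on both strands.
Cav2 promoter: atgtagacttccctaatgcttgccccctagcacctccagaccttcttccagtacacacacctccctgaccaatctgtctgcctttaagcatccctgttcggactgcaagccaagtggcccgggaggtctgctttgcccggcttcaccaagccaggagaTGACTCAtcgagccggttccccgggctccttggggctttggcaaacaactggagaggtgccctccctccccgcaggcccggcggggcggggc
The AP-1 match begins 92 bases before the start, and 6.75% of all promoters of this length hold one. One GC box, GGGCGG, begins 9 bases before the start (32.7% of promoters), and one CCAAT begins 182 bases before it (33.8%). None of these matches overlaps another. The E-box CACGTG, the motif of Tfe3 and of Mnt with Max, was not found in the window (6.02% of promoters hold it), nor was TATAAA (12.4%). The window is rich in G and C, at 62.0% against a median of 52.4% over all promoters. A match is a description of letters, and binding was not measured.

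Cav2 was lower in every treated library than in any untreated library. Its FPKM was 27.6, 25.5 and 27.0 in untreated replicates 1, 2 and 3, and 9.92, 10.5 and 10.6 in treated replicates 1, 2 and 3. The groups did not overlap, and the lowest untreated value was 2.42 times the highest treated value. Within a group the highest value was 1.08 times the lowest in untreated cells and 1.07 times in treated cells. The group means were 26.7 ± 1.06 and 10.3 ± 0.363 FPKM (SD, n = 3 each), so treated cells held 38.7% of the untreated level, a 2.58-fold fall. The log2 fold change was -1.37 (SE 0.04). The pooled SD of log2 FPKM within groups was 0.055. Because Cav2 was chosen for its fall, these values describe the difference and do not test it. Less Cav2 RNA per cell and fewer cells that make it cannot be told apart in these bulk samples.

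**Figure D1:**
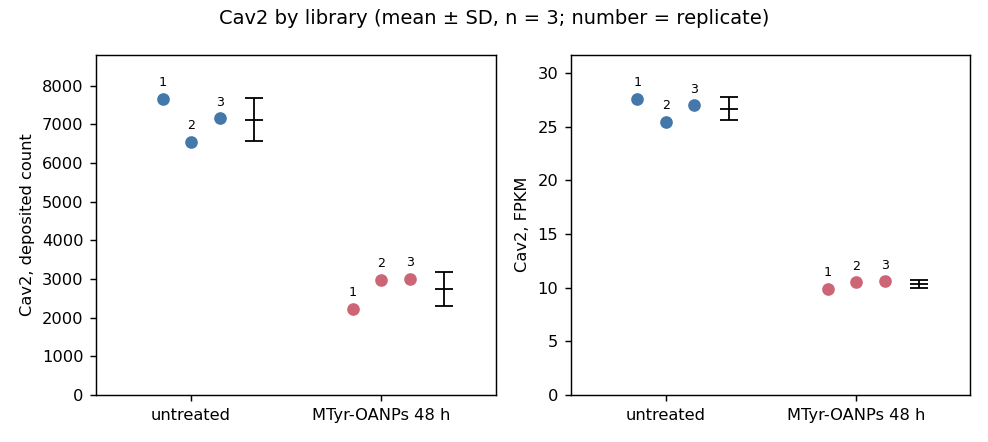
Deposited counts (left) and FPKM (right) of Cav2 in each library, with points numbered by replicate and the mean and SD of each group (n = 3) beside them. The 3 untreated libraries lie between 25.5 and 27.6 FPKM and the 3 treated libraries between 9.92 and 10.6 FPKM.

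These values rest on at least 2230 counts in each library. The counts of Cav2 were 7660, 6557 and 7163 in untreated replicates 1, 2 and 3, and 2230, 2983 and 3003 in treated replicates 1, 2 and 3. Treated replicate 1 was the shallowest library, with a relative depth of 0.85 against 0.971 to 1.075 in the others, and its lower count was largely levelled by scaling to depth. Divided by the implied library size (in units of 1000000), the counts were 91.9, 85.1 and 90.2 untreated and 33.1, 35.1 and 35.2 treated. The coefficient of variation (SD over mean) of FPKM was 3.97% in untreated and 3.51% in treated cells, against medians of 4.56% and 4.26% over the tested genes. Counting alone would give 1.14 to 1.23% untreated and 1.82 to 2.12% treated if each count is an independent event. Low counts in the table fall mostly on multiples of 4, and if 4 counts make 1 event these figures become 2.29 to 2.47% and 3.65 to 4.24%. Cav2 thus varied between libraries about as much as a typical tested gene.

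In the order of levels, Cav2 moved from the upper part of the tested genes to about the middle. By mean FPKM it stood at place 15 of the 53 tested genes in untreated cells and at place 29 in treated cells. Its place was 15, 17 and 15 in untreated replicates 1, 2 and 3 and 30, 28 and 29 in treated replicates 1, 2 and 3. In untreated cells the next genes above were Itga5 (31.3 ± 1.04 FPKM, SD, n = 3) and Gna12 (31.2 ± 1.08 FPKM), and neither overlapped with Cav2. The next below were Dlat, a subunit of pyruvate dehydrogenase (26.0 ± 0.483 FPKM), and Cdc45 of the replicative helicase (25.5 ± 0.447 FPKM), and both overlapped with Cav2 in single libraries. In treated cells the neighbours were Gpr107 (11.0 ± 0.261 FPKM) and Mnt (10.5 ± 0.634 FPKM) above and Grasp (10.2 ± 0.406 FPKM) and Ngfr (10.2 ± 0.529 FPKM) below. Of these, Mnt, Grasp and Ngfr had libraries within the range of Cav2, and Gpr107 did not. Ngfr, which encodes the p75 neurotrophin receptor, reached this level from 1.37 ± 0.0895 FPKM in untreated cells.

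Change was common among the tested genes, which are those whose mean FPKM over the 6 libraries reached 1. In edgeR's quasi-likelihood test 44 of the 53 genes passed an adjusted p of 0.05 (83%), with 24 lower (45.3%) and 20 higher (37.7%) after treatment. When library medians were aligned instead, 26 were higher and 16 lower, though such medians rest on these 53 genes alone. All these counts describe the tested genes of a partial table and not the whole transcriptome. The groups did not overlap in 45 genes (84.9%), of which 24 were lower (45.3%). The median log2 fold change of the tested genes was -0.03. The fall of Cav2 was the 6th largest of the tested genes and its change the 10th largest in either direction. Because Cav2 was chosen for this fall, nothing further is read from its place.

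**Figure D2:**
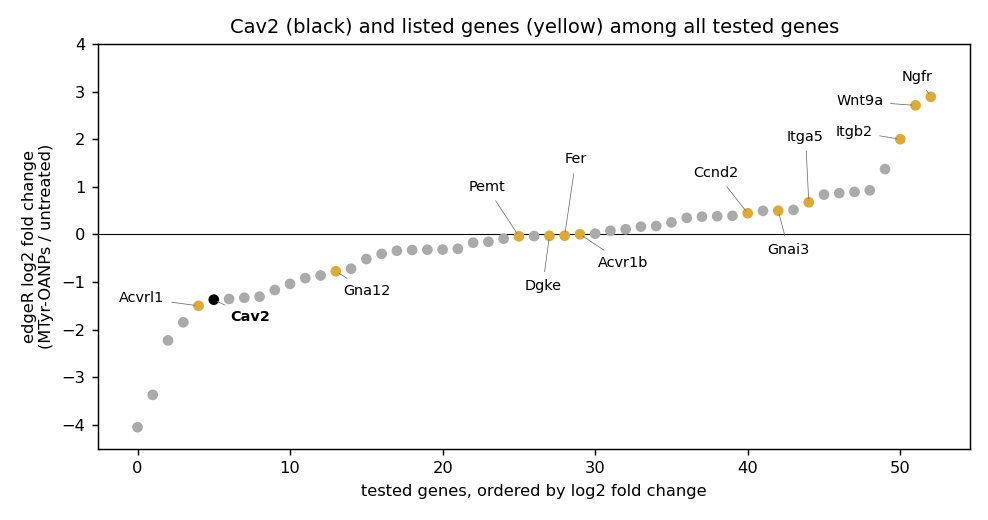
Log2 fold change (treated over untreated, edgeR) of the 53 tested genes in rising order, with Cav2 in black and listed genes in yellow. Listed genes come from caveola-related lists, cell type markers and KEGG terms shared with Cav2. Cav2 lies at -1.37, next to Acvrl1 at -1.5, and the listed genes lie on both sides of 0.

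Ratios between genes of one library do not depend on the scaling of libraries. The FPKM ratio of Cav2 to each of the other 52 tested genes was taken in every library. As a description, since Cav2 was chosen for its fall, for 43 genes the ratio was lower in all treated libraries than in any untreated library. For H19, Tbx2, Gmpr and Arvcf, whose own falls were larger, the ratio was higher in all treated libraries. For the remaining 5, Narf, Cox5a, Slc22a18, Hddc2 and Acvrl1, the groups overlapped.

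The genes nearest to Cav2 in profile were found by the root mean square distance between log2 FPKM values, each gene centred on its mean over the 6 libraries. Cox5a, a subunit of cytochrome c oxidase, was nearest, at a distance of 0.064 on the log2 scale among 52 genes compared. Its FPKM was 64.9, 67.2 and 72.0 in untreated and 26.5, 26.3 and 27.0 in treated replicates 1, 2 and 3. The mean ratio of Cav2 to Cox5a was 0.393 in untreated and 0.388 in treated cells. Hddc2, an HD domain protein, followed at 0.077, then Narf at 0.117, Cdc45 at 0.173 and the membrane transporter gene Slc22a18 at 0.179. Hddc2 fell from 11.7 ± 0.396 to 4.71 ± 0.458 FPKM and Narf from 6.63 ± 0.321 to 2.64 ± 0.366 FPKM (SD, n = 3 each). Cdc45 fell less, to 12.4 ± 0.873 FPKM, and the mean ratio of Cav2 to it went from 1.05 to 0.833. Pearson's correlation, which ignores the size of a change, gave another set of 5 genes, with r from 0.996 to 0.999 and Galnt1, Arvcf and Gmpr at its head, and shared 0 of 5 with the set by distance. Both measures over 6 libraries in 2 groups mainly follow the difference between the groups.

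**Figure D3:**
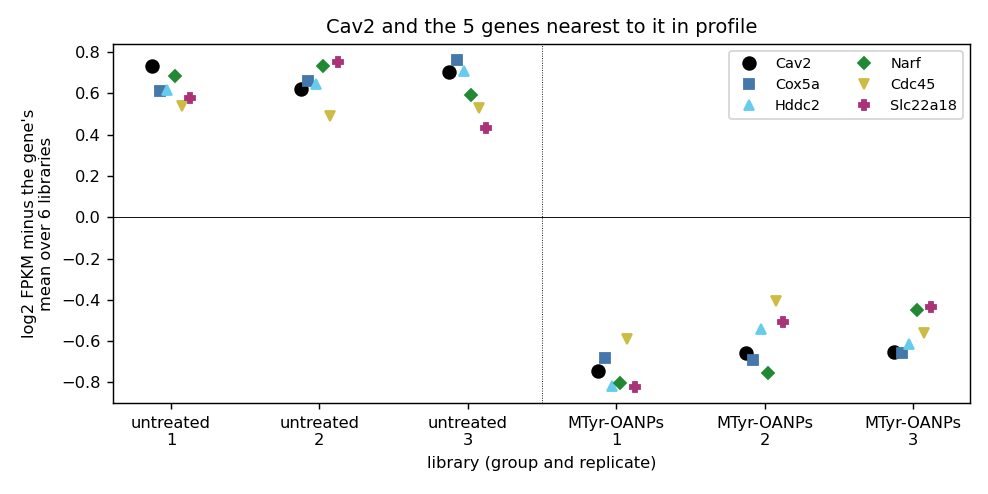
Log2 FPKM of Cav2 and of the 5 genes nearest to it, each minus the gene's own mean over the 6 libraries, in every library. All 6 genes lie above 0 in the untreated and below 0 in the treated libraries, and Cox5a lies closest to Cav2, at a distance of 0.064.

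The other listed genes moved in both directions. They come from caveola-related lists, from cell type marker lists and from KEGG terms shared with Cav2, so not all are tied to caveolae. The genes described here from the lists and from the pathway terms shared with Cav2 number 18 with a count, of which 12 were tested. Of these, 8 passed edgeR's test, against 83% of all tested genes, with 6 higher and 2 lower. Their median log2 fold change was 0.22, against -0.03 for all tested genes. Of the 6 higher genes, Itgb2 and Wnt9a reached the FPKM minimum only through their treated libraries, while Pdgfb, lower after treatment, did not reach it. The directions and the median therefore depend on that minimum. With no FPKM minimum 10 of the 18 passed, 7 higher and 3 lower, against 61.4% of 83 genes. The share that passed was thus no higher than in the table as a whole.

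Of 20 receptors and G proteins known from caveolae, 5 were tested, of which 2 rose, 2 fell and 1 did not pass. Among all tested genes 83% passed, with 37.7% higher and 45.3% lower, so these 5 do not stand out by their calls. Acvrl1, which encodes the BMP9 receptor ALK1, had FPKM values of 9.93, 10.1 and 10.0 in untreated and 2.74, 3.21 and 4.64 in treated replicates 1, 2 and 3. Its edgeR log2 fold change was -1.5 (edgeR adjusted p = 3.2e-11), and its log2 FPKM difference was -1.54 (SE 0.23). The highest treated value was in replicate 3, and the groups did not overlap, nor did they in 84.9% of all tested genes. Acvr1b, which encodes an activin receptor, had 5.18 ± 0.202 FPKM untreated and 5.19 ± 0.433 treated (SD, n = 3 each; edgeR adjusted p = 0.98), and its groups overlapped. Ngfr had 1.47, 1.30 and 1.34 FPKM untreated and 10.8, 9.98 and 9.74 treated, a log2 fold change of 2.89 (SE 0.07, edgeR adjusted p = 9.2e-18). The G protein alpha subunits went opposite ways. Gnai3, an inhibitory subunit, rose to 67.2 ± 1.59 FPKM in treated cells, from 47.6 ± 0.787 untreated (SD, n = 3 each), with an edgeR adjusted p of 2e-11. Gna12 fell to 18.3 ± 0.640 FPKM in treated cells, from 31.2 ± 1.08 untreated (SD, n = 3 each), with an edgeR adjusted p of 3.5e-13.

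All 3 tested genes of the integrin and focal adhesion list rose, where 37.7% of all tested genes were higher, and 26 of the 53 with library medians aligned. That count rests on the FPKM minimum, which Itgb2 reached only through its treated libraries and which Pdgfb, lower after treatment, did not reach. Itga5, integrin alpha 5, which binds fibronectin with integrin beta 1, had FPKM values of 30.8, 32.5 and 30.6 untreated and 50.0, 50.0 and 49.9 treated, a log2 fold change of 0.68 (SE 0.03, edgeR adjusted p = 5e-14). It stood just above Cav2 in untreated cells and well above it after treatment. Ccnd2, a D-type cyclin that KEGG places under focal adhesion, rose to 101 ± 3.4 FPKM in treated cells, from 74.0 ± 2.94 untreated (SD, n = 3 each), with an edgeR adjusted p of 1e-09. Itgb2, whose product pairs with alpha chains on white blood cells, had 0.249, 0.521 and 0.442 FPKM untreated and 1.54, 1.56 and 1.75 treated. Its edgeR log2 fold change was 2.00 (edgeR adjusted p = 1.7e-08), and its log2 FPKM difference was 2.07 (SE 0.33). Its mean was 0.404 FPKM untreated and 1.62 treated, so its place among the tested genes is tied to its rise. With no FPKM minimum its edgeR adjusted p was 2.5e-15. The growth factor gene Pdgfb, also on that list, was below the FPKM minimum. Its FPKM was 0.806, 0.948 and 1.07 untreated and 0.569, 0.712 and 0.632 treated. Its groups did not overlap, nor did those of 84.9% of the tested genes. In edgeR with no FPKM minimum, where 51 of 83 genes passed (61.4%), its adjusted p was 0.019 and its log2 fold change -0.55.

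**Figure D4:**
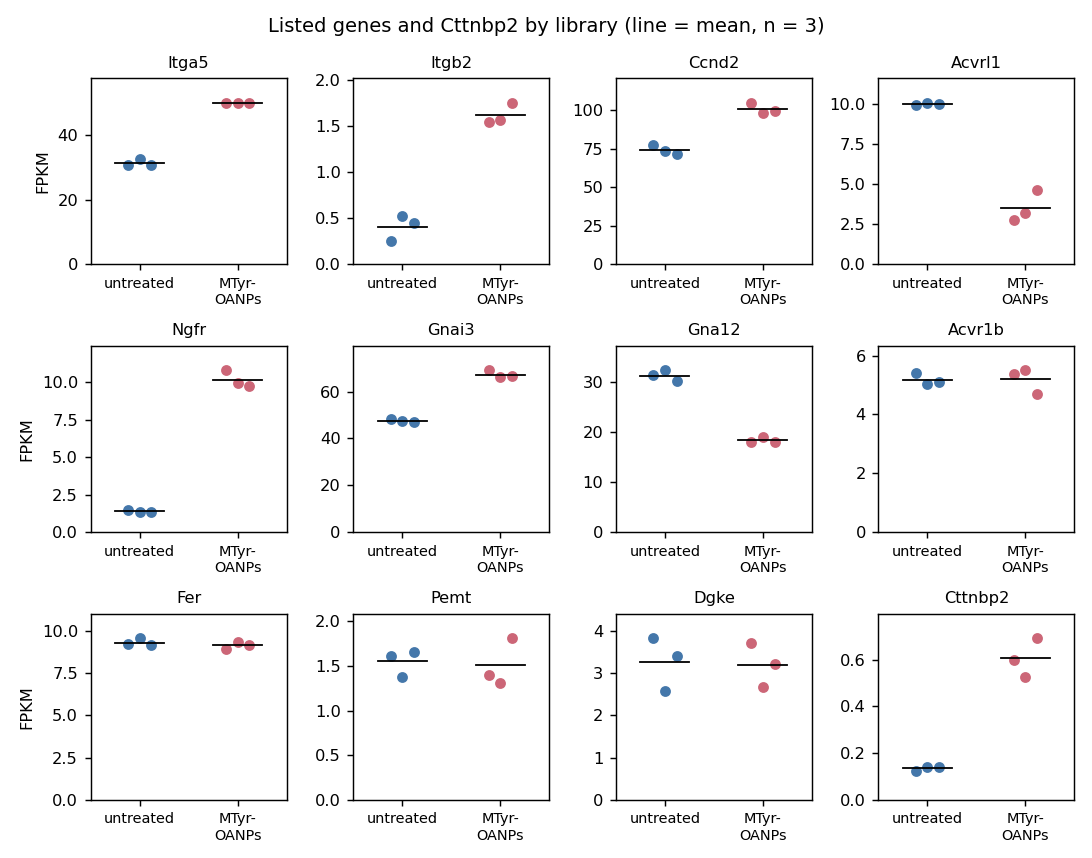
FPKM by library (points; line at the group mean, n = 3) for 11 genes of the lists and for Cttnbp2, each on its own linear axis from 0. Acvrl1 and Gna12 lie lower in the treated libraries, 6 genes lie higher, and Acvr1b, Fer, Pemt and Dgke overlap between the groups.

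The table's KEGG column placed Cav2 under endocytosis, focal adhesion, bacterial invasion of epithelial cells, proteoglycans in cancer, and fluid shear stress and atherosclerosis. No other gene of the 99 shared the endocytosis term. Itga5, Ccnd2 and Pdgfb shared the focal adhesion term. Wnt9a, a secreted Wnt ligand listed under proteoglycans in cancer, had 1.11, 0.889 and 0.961 FPKM untreated and 6.68, 6.86 and 5.98 treated in replicates 1, 2 and 3, and it rose with an edgeR adjusted p of 2e-15. Its untreated mean, 0.988 FPKM, was below the minimum of 1, so it was among the tested genes only through its treated libraries. With no FPKM minimum, where 61.4% of 83 genes passed, its edgeR adjusted p was 1.2e-59. Of those below the FPKM minimum, Septin1, a filament-forming GTPase, had 0.538 ± 0.123 FPKM untreated and 0.460 ± 0.113 treated (SD, n = 3 each), with overlapping groups. The epithelial cadherin Cdh1 had mean counts of 5.3 untreated and 10.7 treated, and the Wnt ligand Wnt3 had a count of 4 in treated replicate 1 and 0 elsewhere, too few for a comparison.

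Of 19 genes for membrane lipids 2 were tested, and of 10 genes for caveolar scission and kinases 1. These 3 genes gave no call, where 83% of all tested genes passed. Fer, a tyrosine kinase of adhesion and membrane traffic, was the only tested gene of the scission and kinase list, at 9.32 ± 0.219 FPKM untreated and 9.15 ± 0.226 treated (SD, n = 3 each; edgeR adjusted p = 0.76). Pemt, which makes phosphatidylcholine from phosphatidylethanolamine, had 1.55 ± 0.152 and 1.51 ± 0.261 FPKM (SD, n = 3 each; edgeR adjusted p = 0.86). Dgke, a diacylglycerol kinase, had 3.27 ± 0.630 and 3.21 ± 0.525 FPKM (SD, n = 3 each; edgeR adjusted p = 0.84). For all 3 genes the groups overlapped, where in 84.9% of all tested genes they did not. With library medians aligned, which raises all genes by 0.23 on the log2 scale, Fer had a log2 fold change of 0.21 (edgeR adjusted p = 0.012) and Acvr1b one of 0.23 (edgeR adjusted p = 0.026). For log2 differences the SE was 0.22 for Dgke and 0.16 for Pemt, against 0.04 for Cav2, so small changes of these genes would not have been seen. The clathrin and other uptake genes of the lists were not analysed here.

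On the chromosome of Cav2 the table holds 1 of the 14 annotated protein-coding genes within 2 Mb, Cttnbp2, which encodes a cortactin-binding protein and begins 1077.4 kb beyond Cav2. It went the other way, from 0.122, 0.142 and 0.140 FPKM untreated to 0.600, 0.525 and 0.691 treated in replicates 1, 2 and 3. Cttnbp2 was below the FPKM minimum, with means of 0.135 FPKM untreated and 0.605 treated. Its counts were 91, 97 and 99 untreated and 359, 395 and 522 treated. Its groups did not overlap, nor did those of 84.9% of the tested genes. In edgeR with no FPKM minimum, where 51 of 83 genes passed (61.4%) and 27.7% were higher, its log2 fold change was 2.16 (adjusted p = 4.2e-18).

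Markers of other cell types were few in the table. Of 5 leukocyte markers, 2 were in the table, and both were higher after treatment; in edgeR with no FPKM minimum 23 of 83 genes were (27.7%). Besides Itgb2, the T cell kinase gene Lck had 0.241, 0.241 and 0.392 FPKM untreated and 1.30, 1.09 and 1.48 treated. The summed FPKM of these 2 markers ran from 0.490 to 0.833 untreated and from 2.65 to 3.23 treated, and their part in the fall of Cav2 was not tested. Ptprc, Cd3e and Lyz2, the other 3 markers, were not analysed here. Of 5 fibroblast markers 1 was in the table, Fap, with a count of 15 in untreated replicate 3 and 0 in the other libraries. None of the 5 endothelial markers, a cell type rich in caveolae, and none of the 7 melanocyte markers was analysed here, so the melanoma label was not checked against pigment genes.

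The fall of Cav2 kept its direction under all 17 alternative ways of processing. That was close to fixed in advance, as Cav2 was chosen for its fall in these same libraries. The alternatives therefore describe only how its size depends on the processing. The log2 fold change was -1.40 at its lowest, without untreated replicate 2, and -1.14 at its highest, with library medians aligned, a 2.20-fold fall. Leaving out 1 library at a time gave -1.40 to -1.34, so no single library set the size of the fall.

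**Figure D5:**
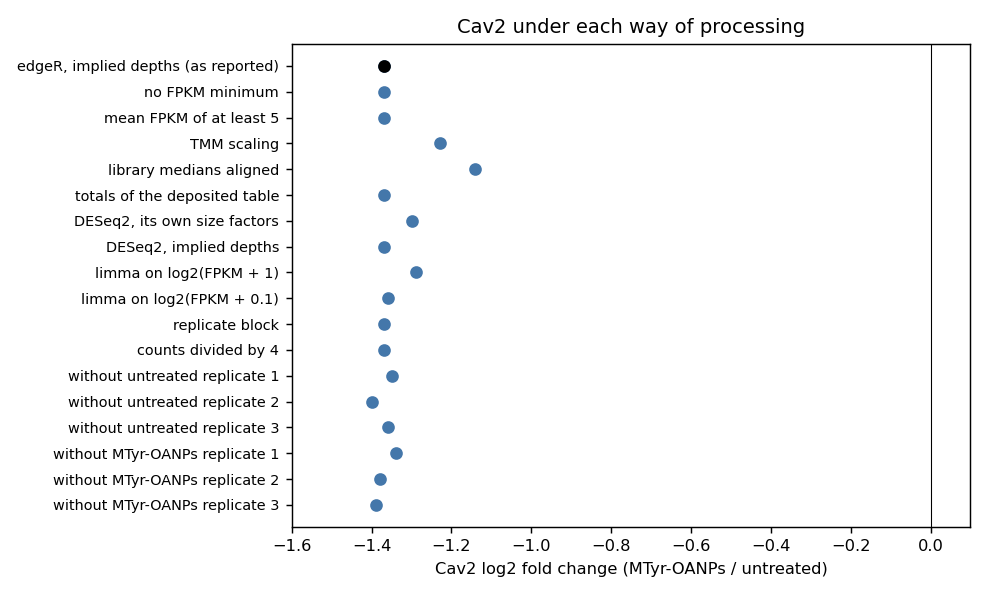
Log2 fold change of Cav2 (treated over untreated) as reported (black) and under each of the 17 alternatives (blue), with a line at 0. All values lie between -1.40 and -1.14, and the smallest falls come from aligned library medians and from TMM scaling.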

How the data were processed

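Gene expression was measured in 3 untreated and 3 treated B16F10 libraries by poly(A) RNA sequencing, with 2 × 150 base reads per the labels' protocols. Per the file headers, the authors deposited whole-number counts beside FPKM values. CASAVA 1.4 and mm9 are named, per the submitters' processing notes. Both gene ends equal those of GENCODE M21 (GRCm38) for 86 of 99 genes, Cav2 included, so coordinates are given on GRCm38. Aligner, counting tool and strand setting: not given in the sources used here. Counts over the 99 genes came to 334160 to 421423 per library. Library sizes, 67.41 to 85.23 in units of 1000000, were derived from counts divided by FPKM over 59 genes with a count of at least 50 in every library, with their level set by 7 single-transcript genes; no gene deviated by more than 1.62%. Of 41 counts from 1 to 20, 30 were multiples of 4.

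edgeR 4.0.16 (R 4.3.3; quasi-likelihood test, two-sided, Benjamini-Hochberg over 53 genes whose mean FPKM reached 1) was fitted on the counts with these sizes. The common dispersion was 0.00435. SE values came from log2 FPKM within groups. limma 3.58.1 and DESeq2 1.42.0 (mean dispersion trend) were alternatives. Simulated data with known changes were run through both the edgeR and the limma step, and only edgeR was held to set limits. The simulation changed a smaller share of genes than passed in the real data. The members and lists were chosen with earlier results of these data known. Named genes were Cav2, listed genes with a count, genes within 2 Mb, the 5 nearest in profile and neighbours in level; neighbours in the treated group were added after the values were seen. For 1 further gene under the rule, values are not reported here and it is left out of list counts.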

Additional observations from a re-analysis of the deposited data

How the results depend on the processing

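The log2 fold change of Cav2, -1.37, moved by more than the SD between replicates under TMM scaling (-1.23), aligned library medians (-1.14), DESeq2 with its own size factors (-1.30) and limma on log2(FPKM + 1) (-1.29). The scalings raised the median of all tested genes by 0.14 (TMM), 0.23 (aligned medians) and 0.06 (DESeq2), and the pseudocount shrinks changes by construction. Without 1 library the value ran from -1.40 to -1.34, 40 to 44 genes passed against 44, and 8 listed genes passed in each case. Under aligned medians 26 genes were higher and 16 lower, against 20 and 24; TMM gave 21 and 20. Of 200 values of listed genes 198 kept the side of the threshold. Under aligned medians the call for Acvr1b was gained (0.23, edgeR adjusted p = 0.026) and Fer turned from -0.03 to 0.21 (edgeR adjusted p = 0.012), as the shift raises every gene. Same-numbered libraries of the groups deviated together with correlations of 0.31, 0.40 and -0.01, so the numbers were not taken as pairs; 4 of 6 libraries correlated best with their own number. The replicate block gave 45 calls and -1.37 for Cav2. Profile likeness by Pearson's r shared 0 of 5 genes. Depth did not limit Cav2, but Cdh1, Wnt3 and Fap had too few counts to compare.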
